A study of Mus musculus with 2 samples.

Results

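The 40 genes described here encode the protein factors that start and carry out cytosolic translation in the liver of newborn mice. They were taken by gene symbol from a list of translation factors drawn up with earlier results of these data known, by a rule that uses no measured value, and all 40 were found among the 43346 genes of the deposited tables. The list holds 33 genes named as initiation factors (Eif), 5 named as elongation factors (Eef), the poly(A)-binding protein gene Pabpc1 and the termination factor gene Etf1. Expression was measured by RNA-seq in 2 libraries of 1 group, from the livers of pup 1 (replicate 1) and pup 3 (replicate 2) of the strain B6NCrl on postnatal day 0. Each library began with 13 pg of total RNA above 200 nt, described as 1 cell-equivalent, to which spike-in RNAs were added. It is tissue RNA at the amount of a cell, so no value refers to a single cell. With so little RNA, a value or a count of 0 describes the library and need not be the level of the liver. The labels name no treatment, the sex of the pups was not collected, and the labels call each a single liver while giving both the same donor entry. The spread between the libraries therefore joins differences between animals with technical ones, and these cannot be told apart.

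The libraries held 54817565 (pup 1) and 34792898 (pup 3) expected counts outside the spike-ins, with 5742 and 5491 genes at 1 TPM or more. TPM, the number of transcripts of a gene per 1000000, is a level corrected for transcript length, here rescaled after the spike-ins were removed. Counts of the libraries differed far beyond counting noise (chi-square per degree of freedom 1792.7), so they were not the same library deposited again. All 5 hepatocyte markers (Alb, Afp, Apoa1, Trf and Ttr) were detected in both livers and summed to 119287.5 and 101409.2 TPM. Trf was lower in pup 3 (64243.9 and 42243.4 TPM) and Apoa1 close to equal, whereas Alb, Afp and Ttr were higher there, and the median log2 ratio of the 5 was 0.18. Blood cell markers were also present: 6 of 6 erythroid genes summed to 132733.4 and 163136.9 TPM, 3 of 3 neutrophil genes to 4893 and 7696 TPM, and 3 of 3 macrophage genes to 462 and 505 TPM. Members of each type went both ways. The erythroid Alas2, the neutrophil Ngp and the macrophage C1qb were lower in pup 3, and the other blood cell markers were higher there. Of the endothelial genes, 2 of 3 were detected in both, and they went in different directions: Stab2 had 140 and 31.2 TPM, Pecam1 2.55 and 35.9 TPM, and Kdr 0 and 1.44 TPM, with a sum of 143 and 68.5 TPM. The part of these cell types in the differences below was not tested. In bulk RNA of this kind fewer cells of a type and less RNA per cell cannot be told apart. No test was run, since the labels name no groups to compare, and mean ± SD has n = 2 throughout. Where a pair of values is given, pup 1 comes before pup 3.

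Translation of an mRNA begins when the small ribosomal subunit, loaded with initiator tRNA by eIF2, is brought to the capped 5′ end by the eIF4 factors and eIF3 and scans to the start codon. eIF2B recharges eIF2 with GTP after each round, which makes it a main point of control under stress. In elongation, eEF1A delivers each aminoacyl-tRNA, the eEF1B subunits recharge eEF1A with GTP, and eEF2 moves the ribosome along by a codon. The liver of a newborn makes large amounts of plasma protein, and its blood-forming cells make hemoglobin.

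Transcripts of nearly all of the factors were found in both livers. At 1 TPM, detection in both was seen for 37 of the 40, while Eif3f was found only in pup 1, Eif4e only in pup 3 and Eif2b5 in neither. Of the 39 factors detected in at least 1 library, 94.9% were detected in both, beside 46.3% of all 7678 genes detected in at least 1. The share differed with level. Among all genes with a mean of 30 to 100 TPM the share was 75.7%, and 13 of 13 factors in that range were found in both. Between 10 and 30 TPM it was 29.0% for all genes and 6 of 8 for the factors. Together the 40 genes held 9612 TPM in pup 1 and 6831 TPM in pup 3, which is 0.961% and 0.683% of all TPM (0.822 ± 0.197%).

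**Figure D1:**
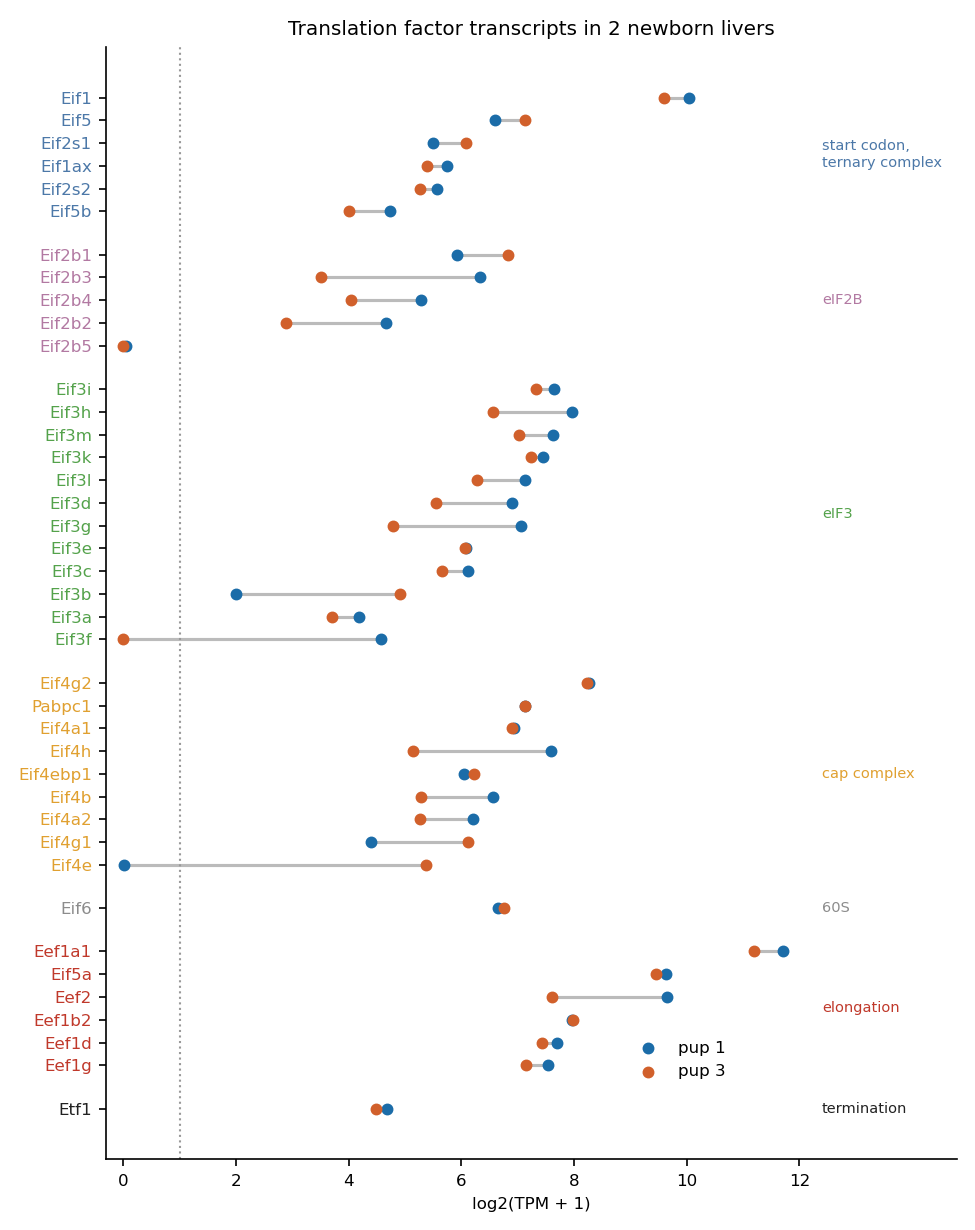
Level of each of the 40 genes, as log2(TPM + 1), in pup 1 and pup 3, grouped by role, with the dotted line at 1 TPM. Eef1a1 is highest in both libraries (3335 and 2335 TPM), and Eif3f, Eif4e and Eif2b5 have a point below the line in at least 1 library.

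The elongation factors had higher levels per gene than the initiation factors, and with genes grouped by name the sums were close. The median elongation factor stood at 248 TPM (pup 1) and 193 TPM (pup 3), whereas the median initiation factor had 72.6 TPM and 49.7 TPM. The ratio of these medians was 3.41 in pup 1 and 3.89 in pup 3 (3.65 ± 0.337). All 5 elongation genes exceeded 26 of the 33 initiation genes in pup 1 and 28 of 33 in pup 3. The groups still overlapped, because 7 initiation genes in pup 1 (Eif1, Eif5a, Eif4g2, Eif3h, Eif3i, Eif3m and Eif4h) and 5 in pup 3 (Eif1, Eif5a, Eif4g2, Eif3i and Eif3k) lay above the lowest elongation gene. In summed level the 33 initiation genes reached 4671 and 3577 TPM (4124 ± 774), and the 5 elongation genes 4777 and 3093 TPM (3935 ± 1191). Elongation over initiation was thus 1.02 in pup 1 and 0.864 in pup 3, so by name the larger sum was not the same group in both livers. Eef1a1 alone made up 69.8% and 75.5% of the elongation sum, and without it the sum was 1442 and 758 TPM. Eif5a is named as an initiation factor and is known to act in elongation, where it helps ribosomes past stalling sequences. Counted with elongation, it raised the ratio of medians to 6.01.

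**Figure D2:**
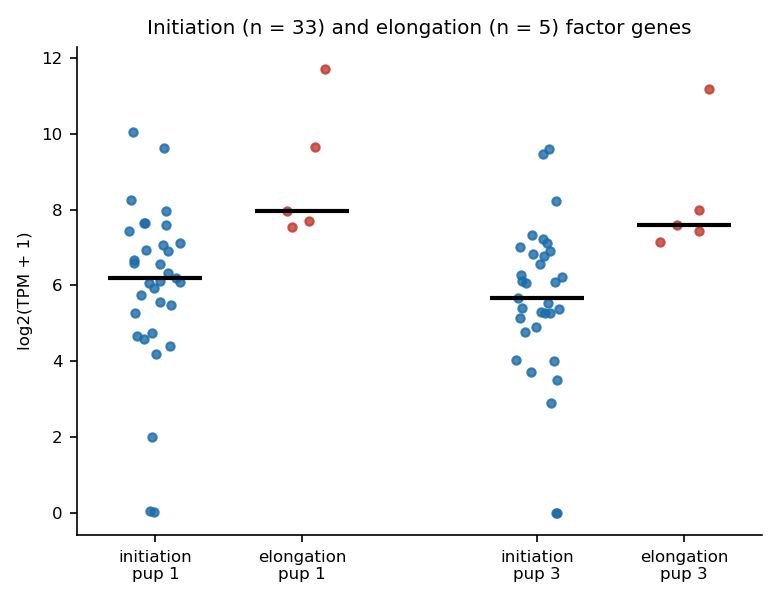
Levels, as log2(TPM + 1), of the 33 initiation and 5 elongation genes in each library, with bars at the medians. The elongation medians (248 and 193 TPM) lie above the initiation medians (72.6 and 49.7 TPM), and the groups overlap in both libraries.

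Eef1a1, which encodes the carrier of aminoacyl-tRNA (chromosome 9, 78478449 to 78489151, minus strand, GRCm38), was the most abundant factor in both livers. It had 207589 expected counts and 3335 TPM in pup 1 and 100052 counts and 2335 TPM in pup 3 (2835 ± 707), above 99.3% and 99.0% of detected genes. The exchange factor subunits that reload it were far lower and within 2-fold between the livers. Eef1b2 had 248 and 253 TPM (250.2 ± 3.35), Eef1d 208 and 171 TPM (189 ± 25.8), and Eef1g 186 and 141 TPM (163 ± 31.6). Eef1a1 exceeded Eef1d 16.1-fold in pup 1 and 13.7-fold in pup 3, and Eef1g 17.96-fold and 16.6-fold. Eef2, the translocase (chromosome 10, 81176631 to 81182498, plus strand), was the exception among elongation genes. Its 100302 counts and 801 TPM in pup 1 compared with 16593 counts and 193 TPM in pup 3, a log2 ratio of -2.05. Eef1a1 therefore exceeded Eef2 4.16-fold in pup 1 and 12.1-fold in pup 3. Eif5a had 790 and 703 TPM (747 ± 61.6) and ranked 4 and 3 among the 40 genes. Etf1, the release factor that reads stop codons, was low in both, at 24.6 and 21.4 TPM (23.0 ± 2.23).

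Many mRNAs of the translation machinery are known to begin with a 5′ terminal oligopyrimidine (TOP) tract, a C followed by a run of C or T, through which mTORC1 signalling controls their translation. The first 25 bases of the most abundant coding transcript are shown for the elongation genes and for the factors whose start has that form, since they show which annotated starts carry the tract. Capitals mark the unbroken run of C or T from the first base. The sequences are from GENCODE M21 transcripts (GRCm38), 5′ to 3′ in the sense of the gene.
Eef1b2 (chr1:63177130-63177154, plus strand): CTTTTTTTCCCTCagcgctggccgc
Pabpc1 (chr15:36608949-36608973, minus strand): CCCCTTCTCCCCggcggttagtgct
Eif3f (chr7:108934417-108934441, plus strand): CTCTTTCTCggcaagatggcttctc
Eif2s1 (chr12:78861819-78861843, plus strand): CTCTTggttgactaaaacttaaagc
Eef1a1 (chr9:78481700-78481724, minus strand): TTCCCgagggtgggggagaacggta
Eef1g (chr19:8967041-8967065, plus strand): TTTCCaactcagcggggctgtagac
Eef2 (chr10:81176631-81176655, plus strand): gttgacgtcagcggtctcttccgcc
Eef1d (chr15:75909273-75909297, minus strand): gcagtcctgagctcgcagttccagg

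A C at the first base followed by at least 4 bases of C or T was present at the leading coding start of 4 of 39 factors (10.3%), beside 165 of 6746 detected genes (2.45%), reading only the transcribed strand. The 4 were Eef1b2, the only elongation gene of 5, Eif2s1 and Eif3f among 32 initiation genes, and Pabpc1. Eef1a1 and Eef1g begin with a pyrimidine run whose first annotated base is T. At RefSeq starts (GRCm38.p6) the same form was found at 1 of 35 starts of the 29 factors listed there (2.86%, Eif3f), beside 823 of 32851 starts (2.51%). The form depends on the exact first base, so these shares describe annotated starts. The 4 genes did not share a pattern of levels: Eef1b2 and Pabpc1 differed little between the livers, Eif2s1 was higher in pup 3, and Eif3f was found in pup 1 only.

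Factors of start codon selection were all present in both livers by their gene-level values, and at that level none of the 6 was 2-fold apart under any scaling tried. Eif1, which guards the accuracy of start codon choice (chromosome 11, 100319885 to 100322096), was at rank 2 among the factors in each library, at 1055.5 TPM in pup 1 and 776 TPM in pup 3 (916 ± 198). Its GTPase-activating partner Eif5 had 95.9 and 139 TPM (117 ± 30.2). The eIF2 subunit genes were far lower. Eif2s1 (the alpha subunit, phosphorylated by the stress kinases) had 44.1 and 66.7 TPM, and Eif2s2 (beta) had 46.2 and 37.7 TPM. Eif2s1 over Eif2s2 was thus 0.955 in pup 1 and 1.77 in pup 3, so the order of these subunits was not the same in both. Eif1ax, which opens the small subunit for scanning, had 52.6 and 41.0 TPM. Eif5b, which joins the ribosomal subunits, had 25.7 and 15.0 TPM, of which protein-coding transcripts held 14.75 and 0.583 TPM.

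The genes of eIF2B, the exchange factor of eIF2, were uneven. Eif2b1 (alpha) had 59.97 TPM and 113 TPM, while the others were lower in pup 3. Eif2b3 (gamma) had 4807 counts and 79.1 TPM in pup 1 and 136 counts and 10.3 TPM in pup 3, a log2 ratio of -2.82. Eif2b2 (beta) had 24.2 and 6.40 TPM, and Eif2b4 (delta) 37.9 and 15.4 TPM. Eif2b5, the gene of the catalytic epsilon subunit, was not detected: it had 2 counts in pup 1 and 0 in pup 3, where a count of 0 allows up to 0.0862 CPM, counts per 1000000 (3 counts). Such intervals and floors cover counting error only, since PCR reads without molecular identifiers are not independent molecules. The detected eIF2B genes spanned 3.27-fold in pup 1 and 17.7-fold in pup 3.

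eIF3, the largest initiation factor, holds the small subunit ready for mRNA, and 12 of its subunit genes were listed. Their sum was 1387 TPM (pup 1) and 838 TPM (pup 3), 1113 ± 389, and 11 of the 12 were lower in pup 3 (10 when scaled by spike-in totals, where Eif3e was higher), beside 50.7% of all genes lower at any size. Eif3i (200 and 160 TPM), Eif3k (173 and 150 TPM), Eif3h (249 and 93.9 TPM) and Eif3m (198 and 129 TPM) had the highest mean levels. Eif3e was the steadiest, at 66.6 and 65.7 TPM (66.2 ± 0.676). At 2-fold or more, Eif3d (118 and 45.6 TPM), Eif3g (133 and 26.5 TPM), Eif3h and Eif3f were lower in pup 3, and only Eif3b was higher there. These 4 and 1 of 12 stand beside 34.5% of all genes 2-fold or more lower and 33.1% higher, so the share lower by 2-fold was near that of all genes. Eif3b, a scaffold subunit, had 360 counts and 3.01 TPM in pup 1 and 2386 counts and 29.1 TPM in pup 3. Eif3f (chromosome 7, 108934417 to 108942951, plus strand) had 2256 counts and 22.8 TPM in pup 1, against 0 counts in the other liver. With 3 counts taken as the lower limit of each library, it was at least 477-fold higher in pup 1 in CPM. This bound covers counting error only, in 1 library per pup. The remaining subunits, Eif3a (17.3 and 12.02 TPM), Eif3c (68.6 and 49.7 TPM) and Eif3l (139 and 76.6 TPM), were lower in pup 3 by less than 2-fold.

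**Figure D3:**
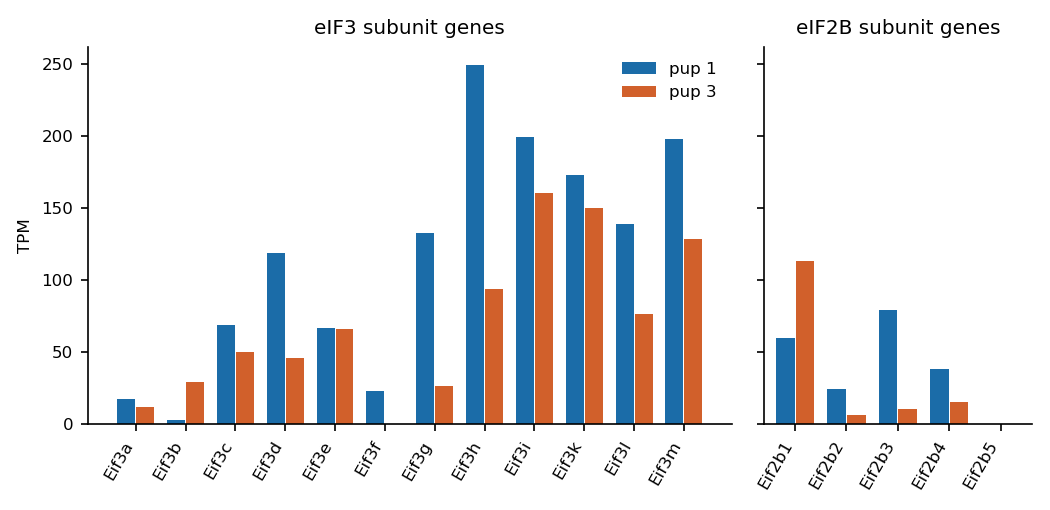
Levels, as TPM, of the listed eIF3 and eIF2B subunit genes in pup 1 and pup 3. Eif3f and Eif2b5 are at 0 TPM in pup 3, and the detected eIF3 subunits span 82.8-fold in pup 1 and 13.3-fold in pup 3.

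Subunits of a complex were therefore not at equal RNA levels in either library. The lowest detected eIF3 gene was Eif3b in pup 1 (3.01 TPM) and Eif3a in pup 3 (12.02 TPM). How much of this unevenness belongs to the livers was not tested. Shorter eIF3 genes had higher levels: Spearman's rho of mean TPM with mean length was -0.66 over the 12 eIF3 genes, beside -0.39 over the 40 factors and -0.34 over 8120 genes with a mean of at least 10 expected counts. These are correlations across genes that share both libraries and their length correction, and genes are not independent replicates.

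Among factors of the mRNA cap, several had nearly equal levels in both livers and the cap-binding gene did not. Eif4a1, the RNA helicase, had 122 and 119 TPM (120 ± 2.21), Eif4g2 306 and 298 TPM (302 ± 6.09), and Pabpc1, which binds the poly(A) tail, 139.1 and 139.5 TPM (139 ± 0.238). Eif4ebp1, which holds eIF4E inactive until mTORC1 phosphorylates it, had 65.4 and 73.9 TPM (69.7 ± 6.01). Eif4e itself, the cap-binding protein (chromosome 3, 138526179 to 138559696, plus strand), had 1 count (0.0107 TPM) in pup 1 and 3215 counts (40.3 TPM) in pup 3. Its ratio of CPM, pup 3 over pup 1, was 5065, with an exact 95% counting interval of 908.5 to 200132.4. Of its relatives, Eif4e2, which binds caps but does not recruit eIF4G, had 59.9 and 63.3 TPM, and Eif4e3 and Eif4e1b had 0 counts in both. Eif4g1, the main scaffold, was lower in pup 1 (20.1 and 68.2 TPM), while the helicase cofactors Eif4h (192 and 34.4 TPM) and Eif4b (93.9 and 38.2 TPM) were lower in pup 3. Eif4a2, the other helicase gene, had 72.6 and 37.6 TPM, so Eif4a1 exceeded it 1.68-fold in pup 1 and 3.16-fold in pup 3. Eif6, which keeps the large subunit from joining too early, had 100.1 and 108 TPM (104 ± 5.31).

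With all roles pooled, more factors were lower than higher in pup 3 under each scaling tried, and most were within 2-fold. This lean did not hold within each role. Of 39 factors with a mean of at least 10 expected counts, 29 were lower and 10 higher in pup 3 (74.4% lower, beside 50.7% of 8120 genes). This split depended on the scaling between libraries: it was 33 lower and 6 higher with edgeR TMM factors and with DESeq2 size factors, and 24 lower and 15 higher when libraries were scaled by spike-in totals. The median log2 ratio was -0.35 for the factors and -0.04 for all genes, and those scalings moved the median of all genes to -0.25, -0.24 and 0.14. On the log2(TPM + 1) scale, which understates differences of low genes, 10 factors (25.6%) were 2-fold or more lower in pup 3, beside 34.5% of all genes, and 3 (7.69%) were 2-fold or more higher, beside 33.1%. All 13 of these kept their direction and stayed 2-fold apart under those scalings. The 10 were Eef2, Eif4h, Eif4b, Eif2b2, Eif2b3, Eif2b4, Eif3d, Eif3f, Eif3g and Eif3h, and the 3 were Eif4e, Eif3b and Eif4g1. The other 26 were within 2-fold. The median size of the log2 ratio was 0.53 for the factors and 2.07 for all genes.

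Genes of like level were compared in bins of mean TPM. Among genes with a mean of 100 to 300 TPM, 40.8% of 677 genes were 2-fold apart, beside 2 of 13 factors, and the median size of the log2 ratio was 0.76 and 0.32. Between 30 and 100 TPM it was 57.6% of 1822 genes and 5 of 13 factors, with median sizes of 1.27 and 0.90. At 300 TPM and above it was 20.8% of 419 genes and 1 of 5 factors, Eef2. Levels of the 40 factors in the paired libraries had Pearson's r of 0.76 and Spearman's rho of 0.81 on the log2(TPM + 1) scale, and the 8120 genes had 0.36 and 0.29. Unlike the bins, these values were not matched for level, and the 40 include Eif2b5, which the count filter keeps out of the 8120. These correlations are across genes of the same pair of libraries and carry no p-value.

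**Figure D4:**
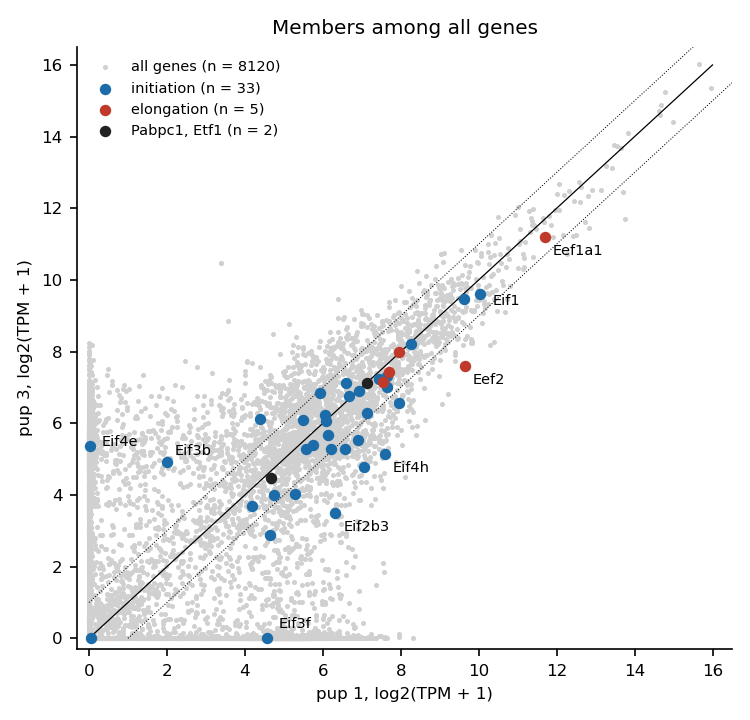
Pup 3 against pup 1, as log2(TPM + 1), for genes with a mean of at least 10 expected counts (grey) and for the translation factors (coloured), with dotted lines at 2-fold. Of 39 factors, 26 lie between the lines, 10 below and 3 above, and Eif3f and Eif4e lie at the axes.

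The gene-level values do not all stand for coding RNA. A transcript's share of its gene is the isoform percent the authors deposited, and the type of each transcript is from GENCODE M21. Of the TPM in a gene's M21 transcripts, protein-coding ones held under 50% for 3 of 38 detected factors in pup 1 (Eif1ax, Eif4a2 and Eef1b2). This stands beside 10.5% of detected protein-coding genes. In pup 3 it was 7 of 38 (the same 3 with Eif5b, Eif2b2, Eif2b3 and Eif6), beside 11.7%. Transcripts not in M21 were left out of these shares. For Eif2b4 such a transcript led, at 60.1% and 90.2% of the gene. The coding M21 transcripts of Eif2b4 had 15.1 of 37.9 TPM in pup 1 and 1.505 of 15.4 TPM in pup 3, so its absence from both lists rests on that choice. In pup 3, Eif5b was carried by the retained-intron transcript Eif5b-202, at 96.1% of the gene against 0.14% in pup 1, with 1668 of its 5788 bases outside the exons of coding transcripts, and the coding Eif5b-201 held 57.5% in pup 1 and 3.87% in pup 3. A retained-intron form of Eif2b2 had 17.3% in pup 1 and 95.5% in pup 3, at 85.2 and 85.4 counts, while the coding Eif2b2-201 had 1110 and 12.6 counts. Only 29 of its 587 bases lie outside the exons of coding transcripts, so few reads can tell it from them. For Eif2b3 the noncoding Eif2b3-204 (541 nt, of which 277 lie outside those exons) held 0.12% and 99.0%, and its coding transcripts were at 0 TPM in pup 3. Counted by coding transcripts alone, 34 of the 40 factors had 1 TPM or more in both livers, the exceptions being Eif5b, Eif2b2, Eif2b3, Eif2b5, Eif3f and Eif4e. Where counts are few, as for Eif2b2 and Eif2b3 in pup 3 (98 and 136 counts), the division among transcripts rests on those reads.

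**Figure D5:**
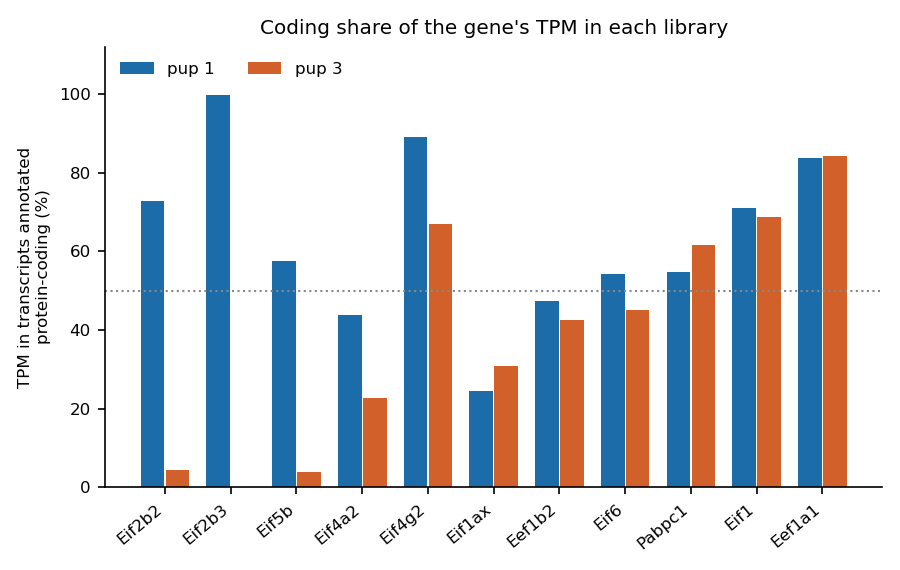
Percent of the TPM in a gene's M21 transcripts held by protein-coding ones in pup 1 and pup 3, with the dotted line at 50%. Only a chosen part of the detected factors is shown: Eif2b2, Eif2b3, Eif5b, Eif4a2, Eif4g2, Eif1ax, Eef1b2, Eif6, Pabpc1, Eif1 and Eef1a1. Eif5b, Eif2b2 and Eif2b3 are above the line in pup 1 and below 5% in pup 3.

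Other genes had the same leading form in both livers. Of 37 factors detected in both, 31 had the same most abundant transcript, which is fixed in advance for those with 1 listed transcript. Among the 23 with more than 1 listed transcript it was 17. The share over all genes was not computed, so neither count is read as particular to the factors. Eif5 was among the 6 whose leading form differed: Eif5-201 held 65.4% in pup 1 and 41.8% in pup 3, and Eif5-202 held 34.7% and 58.2%. Eif4a2-204, a form annotated as subject to nonsense-mediated decay, held 0% of Eif4a2 in pup 1 and 58.8% in pup 3, and 0 of its 1965 bases lie outside the exons of coding transcripts, so its share rests on the estimated division of reads. For Eif1ax the short retained-intron Eif1ax-202 (416 nt) held 75.6% and 69.3% of TPM, though 526 of the gene's 3249 counts in pup 1, since TPM divides counts by length.

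Reads can be divided between near-identical copies or overlapping genes, which limits some values. For 13 factors the tables list a copy on another gene (at least 95% identity over 300 nt on the same strand, 27 copies in all), and none of these copies held over 10% of the factor's own counts in a library. The largest was for Eif1, at 9.99% in pup 1. The 4 copies of Eef1a1 held 0.257% and 0.271%. Exons of 14 factors overlap those of another gene, and for 3 that gene had over 10% of the factor's counts in a library. These are Eef1b2 with Ndufs1 (9 shared bases), Eif2b4 with Snx17 (204 bases) and Eif4a2 with Rfc4 (194 bases), all on opposite strands, where use of strand in counting is not given.

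Other genes of the pathway were detected in part. The counts below stand beside 46.3% of all detected genes found in both libraries, 34.5% of all genes with a ratio 2-fold or more lower in pup 3 and 33.1% higher, and with so few genes a list no share is read as differing from these. Of 21 further initiation genes, 10 were detected in both livers, 6 in 1 and 5 in neither, and of the 17 with a ratio 4 were at least 2-fold lower and 6 at least 2-fold higher in pup 3. Eif4ebp3, a relative of Eif4ebp1, had 578 and 755 TPM (666.5 ± 125) and stood above all listed initiation genes but Eif1 and Eif5a in pup 1 and Eif1 in pup 3. Of its 744 exonic bases in GENCODE M21, 501 are shared with another gene on the same strand that was not analysed here, so reads of the pair cannot be told apart. Eif4a3, a helicase of the exon junction complex, had 71.7 and 179 TPM, and Paip2, an inhibitor of Pabpc1, 99.9 and 96.9 TPM. The eIF2 gamma genes, named after their values were seen, have X and Y copies. Eif2s3x had 30.2 and 0.350 TPM and Eif2s3y 37.2 and 0 TPM, so both were detected in pup 1 and neither reached 1 TPM in pup 3. Of 10 further elongation and termination genes, 2 were detected in both, 3 in 1 and 5 in neither, and of 5 with a ratio 1 was lower and 3 were higher. Eef1e1, which is also part of the tRNA synthetase complex, had 36.6 and 84.8 TPM, and of the enzymes that make the hypusine residue of eIF5A, Dhps had 0 and 62.1 TPM and Dohh 23.4 and 24.6 TPM. Eef1a2, the muscle and neuron form of eEF1A, had 0 counts in both.

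So were its regulators. Of 9 genes of the eIF2 kinases and their response, 3 were detected in both, 3 in 1 and 3 in neither, and of 6 with a ratio 4 were lower and 2 higher by 2-fold. Ppp1r15a, which directs the phosphatase of eIF2 alpha, had 262 and 106 TPM, Atf4, the stress transcription factor, 34.4 and 71.4 TPM, and Eif2ak2, the double-stranded RNA kinase, 0 and 97.3 TPM. Of 13 genes of mTORC1 and its targets, 4 were detected in both, 6 in 1 and 3 in neither, and of 11 with a ratio 3 were lower and 4 higher. Rheb, the GTPase that activates mTORC1, had 33.5 and 63.4 TPM, while the kinase genes Rps6kb1 (80.3 and 0 TPM) and Mknk1 (0 and 66.5 TPM) were each at 0 in a different liver. Of 9 mitochondrial translation factors, 3 were detected in both, 2 in 1 and 4 in neither, and of 6 with a ratio 2 were lower and 1 higher. Gfm1, the mitochondrial elongation factor G, had 54.1 and 64.3 TPM, Mtif3 86.9 and 0 TPM, and Mtif2 49.9 and 25.7 TPM. The list of 22 cytosolic tRNA synthetase genes includes Aimp1 and Aimp2, whose proteins belong to the synthetase complex and are not synthetases. Of these 22, 15 were detected in both, 6 in 1 and 1 in neither. A ratio was available for 21, of which 7 were lower and 5 higher. Nars had 42.7 and 194 TPM, Farsa 0 and 221 TPM and Eprs 100.3 and 108 TPM.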

How the data were processed

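RNA-seq of 2 newborn liver libraries was analysed from the deposited gene and transcript tables. A SmartSeq protocol was followed after mirVana extraction, per the labels' protocols, and no molecular identifiers appear. Per the deposited notes, values refer to mm10 with GENCODE M4 genes. For the aligner, the quantification program and the use of strand: not given in the sources used here. Values the authors deposited were expected counts (estimated reads of a gene, not always whole), TPM, which are corrected for effective length, posterior mean TPM, and isoform percent, each transcript's percent of its gene's TPM. The listed transcript lengths were deposited in nucleotides.

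Spike-ins were removed and TPM rescaled to sum to 1000000. Genes were matched by identifier to GENCODE M21 (GRCm38), and 42462 of 43346 matched. Detection meant 1 TPM. Ratios are log2(TPM + 1), pup 3 over pup 1, for genes with a mean of at least 10 expected counts, and a limit of 2-fold. No test was run, since the labels give 1 group and no contrast. The ratio calculation was tested on simulated counts. Copies were found with blastn 2.17.0. For scaling alternatives, expected counts were rounded and edgeR 4.0.16 TMM factors or DESeq2 1.42.0 size factors were taken in R 4.3.3. Figures used matplotlib 3.10.9, and all else pandas 2.3.3, scipy 1.17.1 and numpy 2.4.6 under Python 3.11.15. The text names all 40 factors and the 3 genes of highest mean TPM in each wider list; Eif2s3x, Eif2s3y, Eif4e2, Eif4e3, Eif4e1b and Eef1a2 were added after their values were seen. The members and lists were chosen with earlier results of these data known.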

Additional observations from a re-analysis of the deposited data

How the results depend on the processing

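The ratio of the median elongation level to the median initiation level (3.65 ± 0.337) moved under 4 of its alternatives. It was 6.01 with Eif5a counted with elongation and 2.89 with only factors at 1 TPM in both libraries, which drops low initiation genes. It was 2.67 in CPM, which within a library differs from TPM only by leaving out the division by effective length. Which genes' lengths moved the ratio was not tested. Over protein-coding transcripts only, an alternative chosen after seeing the data, the ratio was 3.31. The ratio was above 1 in each of them. The count detected in both, the summed levels, the count 2-fold apart and the median log2 ratio moved by less than the limits set for them. Those limits were wide: the SD for the sums and a factor of 1.5 for the others, which is more than the median log2 ratio itself. With 2 libraries, leaving 1 out cannot move a mean past its SD, for the sums or for the ratio of medians. The median log2 ratio still ranged from -0.59 (TMM factors) to -0.15 (spike-in totals), beside -0.35. The factors higher in pup 3 numbered 10, against 6 with TMM or DESeq2 factors and 15 with spike-in totals. Each library alone gave 38 detected factors, a ratio of medians of 3.41 to 3.89, elongation sums of 3093 to 4777 TPM and initiation sums of 3577 to 4671 TPM. Factors 2-fold apart numbered 13, and 15 with TMM factors, DESeq2 size factors or coding transcripts only. No paired analysis was possible because both libraries belong to 1 group. The comparison of protein sequences was not run. At least 10 counts in both libraries were found for 37 factors; why Eif2b5 had 2 and 0 counts was not tested.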
